A study of Mus musculus with 8 samples.

Results

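The angiopoietin, Tie and apelin genes were followed through the bone stromal cells of fractured and unfractured mouse femur. The 7 members were taken by name from the gene column of the count tables, which list 28956 genes, and all 7 were present. They are the angiopoietin genes Angpt1, Angpt2 and Angpt4, the receptor tyrosine kinase genes Tek (which codes for TIE2) and Tie1, the apelin gene Apln and its receptor gene Aplnr. In GRCm38 with GENCODE M21 all 7 are protein coding: Angpt1 at chr15:42424723-42676977, Angpt2 at chr8:18690263-18741562, Angpt4 at chr2:151911210-151945337, Tek at chr4:94739289-94874976, Tie1 at chr4:118471191-118490061, Apln at chrX:48025146-48034853 and Aplnr at chr2:85136225-85139923. A 3′ library counts molecules (unique molecular identifiers, UMIs) near the transcript end, so values below are per gene and not per exon.

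ANGPT1 is a secreted ligand that activates TIE2 on endothelial cells and is known for vessel maturation and quiescence. ANGPT2 binds the same receptor, where it acts as an agonist or an antagonist depending on context, and is known from remodelling vessels. ANGPT4 is the mouse orthologue of the human ligand of that name and also binds TIE2. TIE1 has no well established ligand of its own and modulates TIE2 in complexes with it. Apelin is a secreted peptide that signals through the G protein-coupled receptor APLNR, and Apln is known as a gene of endothelial tip cells while Aplnr is known from veins and capillaries. In long bones, capillaries of the metaphysis grow towards cartilage, arteries supply them, and sinusoidal vessels drain the marrow.

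Cells came from 12-week-old female C57BL/6 mice whose blood cells had been depleted. The Fracture mice had a femur broken by three-point bending at 10 weeks of age, held with an intramedullary nail, and were taken at day 14. The Control mice were wild-type mice of that age without fracture. Each group has 2 cell preparations, called Control 1, Control 2, Fracture 1 and Fracture 2 here, with 2 libraries each. These were taken as repeat libraries of 1 preparation and summed, which the labels imply by their numbering but do not state. Nothing in the labels says how many animals stand behind a preparation, so p-values measure the spread between preparations. After filtering, 45328 of 48903 barcodes were kept, with 12755, 7921, 11867 and 12785 cells in Control 1, Control 2, Fracture 1 and Fracture 2. The median was 7711 UMIs per kept Control cell and 11351 per kept Fracture cell. The lowest UMI total of a deposited barcode was 1 in Control and 1929 in Fracture, so the groups differ in how barcodes were selected before deposit. At most 23 barcodes were shared by any pair of libraries.

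Cells were clustered without the 7 members and the pathway genes, and clusters were named from marker genes. The 5539 endothelial-like cells (ECs) carried 6 of 6 endothelial markers (Cdh5, Emcn and others). The 16763 chondrocyte-like cells formed a cluster led by Col10a1 and Ihh and another led by Serpina1 genes. The stroma fell into 6130 osteoblast-like cells, 5932 cells of a mixed class with markers of bone marrow stromal cells (BMSCs) and of fibroblasts, and 2508 metaphyseal BMSC-like cells, and 1215 cells were smooth muscle-like. Despite the depletion, 4 blood classes remained (granulocyte-like, led by basophil genes, erythroid-like, megakaryocyte-like and monocyte-like). Among cells outside the blood, ECs made up 18.3% and 25.02% of Control 1 and Control 2 and 10.5% and 11.3% of Fracture 1 and Fracture 2, and chondrocyte-like cells 23.0% and 13.6% against 59.1% and 57.7%. With 2 preparations against 2, the exact permutation test cannot go below p = 0.333, the value of both differences. Clusters were drawn after integration over libraries. Without it the cluster led by Adipoq and Cxcl12 held 2067 and 1475 Control but 78 and 103 Fracture cells, and that led by Col10a1 and Ihh 224 and 72 Control but 5547 and 5819 Fracture cells, against 375 and 417 Fracture cells in the diaphyseal BMSC-like subclass and 1068 and 370 Control cells in the Col10a1- and Ihh-led cluster with integration. Values within these therefore rest on the integration. The endothelial, smooth muscle and stromal subclasses were drawn only after integration, and the metaphyseal BMSC-like class could not be drawn without it. Values within those have no check without integration. Levels below are CPM (UMIs of a gene for every 1000000 UMIs of that class in a preparation), and fold changes, Fracture over Control, come from edgeR's quasi-likelihood test on the summed counts, with adjusted p-values over all genes tested and a threshold of 0.05. Leaving out each preparation in turn reversed none of the 50 member calls over classes, subclasses and all cells outside the blood. Of these calls 8 kept an adjusted p below 0.05 in all 4 such fits: Angpt1 and Angpt2 in the mixed stroma, Angpt1, Angpt2, Apln and Aplnr in its diaphyseal BMSC-like cells, Angpt4 in metaphyseal BMSC-like cells and Apln in sinusoidal-like ECs. Another 35 were lost without Fracture 1 and without Fracture 2, 5 without Fracture 1 alone, and those of Angpt2 and Angpt4 in smooth muscle-like cells in 3 and 4 of the fits. Over all genes, too, few or none were called in many classes without a Fracture preparation, while the diaphyseal BMSC-like cells kept many calls. Whether a call was kept therefore follows the class as well as the member, and these counts are a description. For 8 of the 50 calls the member reached the filter on low counts in fewer than 2 preparations of the group where it was lower, so it passed the filter through the other group. These were Apln in arterial-like ECs, cycling stromal cells, the diaphyseal BMSC-like cells and the mixed stroma, Aplnr in the last 2 of these and in osteoblast-like cells, and Angpt4 in smooth muscle-like cells.

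In ECs Apln rose and Tek fell, while the call of a fall in Tie1 was lost under several alternatives given below. The RefSeq promoter windows of these 3 genes are shown so that they can be compared at their starts. Each window (GRCm38.p6) covers the 250 bases before the start, read on the gene's strand. Capitals mark every GGAAG or its complement CTTCC (the core that ETS factors bind, a family prominent in endothelium), ACGTG or its complement CACGT (the core of hypoxia response elements) and TATAAA or its complement TTTATA, searched on both strands.
Apln (chrX:48034854-48035103, minus strand): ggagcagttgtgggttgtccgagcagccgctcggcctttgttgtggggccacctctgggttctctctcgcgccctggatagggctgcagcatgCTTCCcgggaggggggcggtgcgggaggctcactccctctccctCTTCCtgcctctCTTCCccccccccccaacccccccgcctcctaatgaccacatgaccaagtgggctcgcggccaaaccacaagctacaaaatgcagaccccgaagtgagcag
Tek (chr4:94739039-94739288, plus strand): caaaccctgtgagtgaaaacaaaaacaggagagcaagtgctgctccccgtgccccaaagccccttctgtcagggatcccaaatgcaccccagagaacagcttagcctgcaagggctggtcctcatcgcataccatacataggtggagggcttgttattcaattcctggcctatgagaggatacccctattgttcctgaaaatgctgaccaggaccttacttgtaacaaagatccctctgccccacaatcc
Tie1 (chr4:118489850-118490099, minus strand): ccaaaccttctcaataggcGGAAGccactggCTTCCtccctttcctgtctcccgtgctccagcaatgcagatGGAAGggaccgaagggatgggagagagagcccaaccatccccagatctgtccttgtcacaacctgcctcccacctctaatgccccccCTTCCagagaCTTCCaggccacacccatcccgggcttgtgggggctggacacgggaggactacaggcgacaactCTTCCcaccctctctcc
The RefSeq start of Tie1 lies inside the GENCODE gene given above, so most of its window is within those coordinates. The Apln window holds 3 matches to GGAAG, the Tie1 window 6 and the Tek window 0, while none of the 3 holds ACGTG or TATAAA. The Tek window does hold the shorter GGAA core on the other strand (TTCC), which was not counted. Of 32851 RefSeq promoter windows of the same length, 64.1% hold GGAAG, 16.6% ACGTG and 12.4% TATAAA, so a match to the first is common. The Angpt4 window (chr2:151910957-151911206) holds 4 matches to GGAAG and 1 to TATAAA. Angpt1, Angpt2 and Aplnr had no entry.

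**Figure D1:**
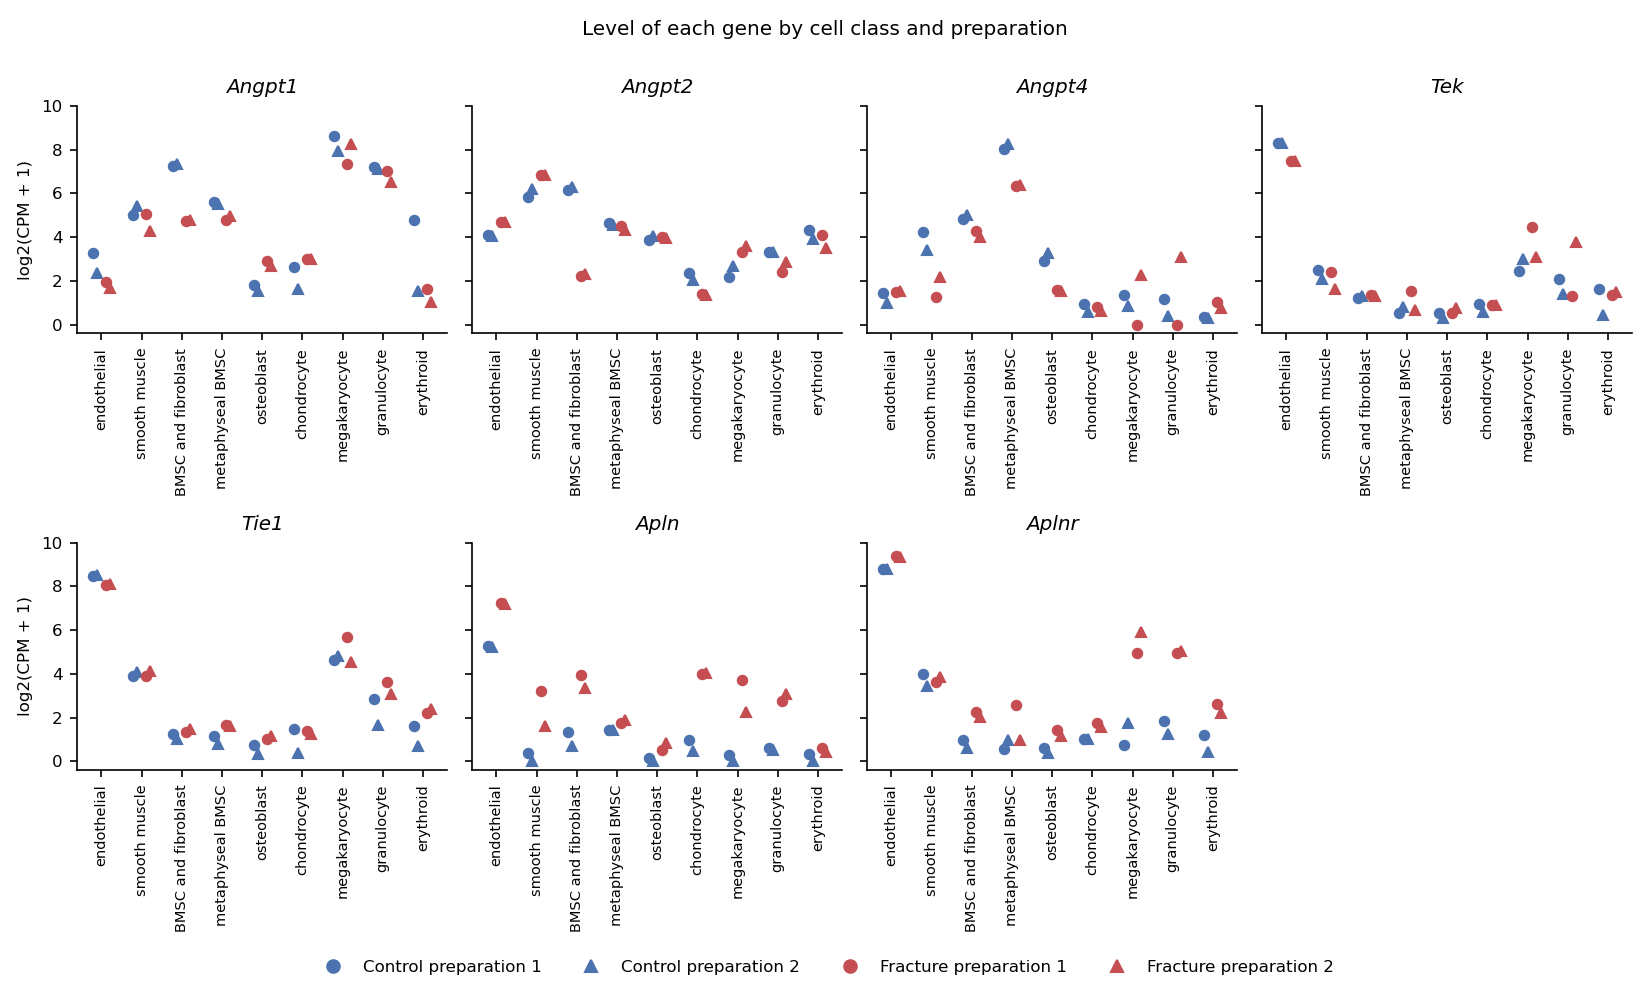
Level of each member as log2(CPM + 1) in 9 cell classes (the monocyte-like class is left out), with 1 point for each of the 2 Control and 2 Fracture preparations. Tek, Tie1, Aplnr and Apln stand highest in endothelial-like cells in all 4 preparations, while the angiopoietin genes stand highest in stromal, smooth muscle-like or blood classes.

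The angiopoietin ligand genes were each highest outside the endothelium. In Control, Angpt1 was highest in megakaryocyte-like cells (398 and 247 CPM), the mixed stroma (153 and 163 CPM) and granulocyte-like cells (146 and 136 CPM). The megakaryocyte-like pair stood above the others, and the mixed stroma and granulocyte-like values were close to each other. Metaphyseal BMSC-like and smooth muscle-like cells followed with 47.3 and 44.1 and 31.1 and 42.1 CPM and did not differ beyond their spread. ECs (8.77 and 4.06 CPM), chondrocyte-like (5.28 and 2.09 CPM) and osteoblast-like cells (2.55 and 1.91 CPM) overlapped in part at the low end. For Angpt2 the order in Control was the mixed stroma and smooth muscle-like cells, whose values overlapped (69.7 and 76.2 against 55.8 and 72.8 CPM), then metaphyseal BMSC-like cells (24.2 and 22.6 CPM), then erythroid-like cells, ECs and osteoblast-like cells, which overlapped (19.2 and 14.0, 16.0 and 15.6 and 13.8 and 15.5 CPM). Angpt4 had a single high class, the metaphyseal BMSC-like cells (257 and 305 CPM), with the mixed stroma next (27.6 and 31.3 CPM).

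The receptor genes and Apln each had a single high class, the ECs. In Control the next classes were megakaryocyte-like cells for Tek (4.53 and 6.97 against 316 and 309.9 CPM in ECs) and for Tie1 (23.9 and 27.1 against 353 and 365 CPM), and smooth muscle-like cells for Aplnr (14.9 and 9.71 against 437 and 439 CPM). For Apln the next were metaphyseal BMSC-like cells (1.68 and 1.74 CPM) and the mixed stroma (1.55 and 0.602 CPM), against 37.1 and 36.1 CPM in ECs. The megakaryocyte-like Tek values overlapped those of smooth muscle-like cells (4.58 and 3.24 CPM), while for Tie1 they lay above them (14.0 and 16.2 CPM).

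Angpt1 fell in the stroma that held most of it outside the blood. In the mixed stroma it was at 153 and 163 CPM in Control 1 and Control 2 and 25.6 and 26.8 CPM in Fracture 1 and Fracture 2. The pairs lie far apart relative to the gap within each (log2 fold change -2.30, SE 0.081, adjusted p = 0.000881), a level 4.93-fold lower in Fracture (95% interval 4.24 to 5.74). The 7 BMSC markers, all above 0, summed to 32023 and 32723 CPM in Control and 3337 and 3364 CPM in Fracture, and the 6 chondrocyte markers to 1148 and 373 CPM in Control and 7975 and 7954 CPM in Fracture, so both sums moved with the groups, and their part in the fall was not tested. Within the diaphyseal BMSC-like subclass Angpt1 was at 206 and 189 CPM in Control 1 and Control 2 and 54.6 and 62.3 CPM in Fracture 1 and Fracture 2 (log2 fold change -1.50, SE 0.11, adjusted p = 0.000849), and the BMSC marker sum there also differed (42955 and 38103 against 4939 and 5693 CPM). The fibroblast-like subclass was at 10.6 and 9.87 CPM in Control and 7.63 and 9.53 CPM in Fracture (log2 fold change -0.18, SE 0.25, adjusted p = 0.661). The fall was 2.82-fold within diaphyseal cells, which were fewer in Fracture (375 and 417, against 1702 and 1231 in Control), so the class value also joins a difference in mix. In metaphyseal BMSC-like cells the fall was smaller, from 47.3 and 44.1 to 26.0 and 30.3 CPM (log2 fold change -0.57, SE 0.13, adjusted p = 0.0290). DESeq2 gave an adjusted p of 0.0738 and cells with at least 3000 UMIs 0.0672. That call was lost without Fracture 1 or Fracture 2 (adjusted p = 0.0819 to 0.166).

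Osteoblast-like cells went the other way for Angpt1, at low level. The gene was at 2.55 and 1.91 CPM in Control 1 and Control 2 and 6.45 and 5.43 CPM in Fracture 1 and Fracture 2, with no overlap (log2 fold change 1.33, SE 0.18, adjusted p = 0.0176), and the stromal subclass of osteoblast-like cells gave a log2 fold change of 1.34. With either Fracture preparation left out, the adjusted p was 0.152 to 0.179. The class-by-group difference between osteoblast-like cells and the mixed stroma was 3.65 on the log2 scale (SE 0.33, adjusted p = 2.39e-07). Chondrocyte-like cells had 5.28 and 2.09 CPM in Control 1 and Control 2 and 6.90 and 6.91 CPM in Fracture 1 and Fracture 2, which did not pass (log2 fold change 0.97, SE 0.39, adjusted p = 0.117). In ECs Angpt1 was low and did not pass (8.77 and 4.06 CPM in Control 1 and Control 2 and 2.87 and 2.194 CPM in Fracture 1 and Fracture 2; log2 fold change -1.23, SE 0.44, adjusted p = 0.0968).

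Angpt2 had the steepest fall of any member. In the mixed stroma it was at 69.7 and 76.2 CPM in Control 1 and Control 2 and 3.62 and 3.91 CPM in Fracture 1 and Fracture 2 (log2 fold change -3.99, SE 0.11, adjusted p = 0.000881), 15.8-fold lower in Fracture with a 95% interval of 12.9 to 19.5. In the diaphyseal BMSC-like subclass the values were 95.1 and 90.2 CPM in Control 1 and Control 2 and 4.53 and 5.42 CPM in Fracture 1 and Fracture 2 (log2 fold change -3.95, SE 0.15, adjusted p = 0.000306), in cells whose BMSC marker sum also differed (given above). The Fracture values lie far below every Control value, and the fall held in each of the 4 fits with 1 preparation left out (-4.04 to -3.91 in the mixed stroma and -4.08 to -3.80 in the subclass). Cycling stromal cells gave a smaller fall, from 24.97 and 25.9 to 9.75 and 9.21 CPM (log2 fold change -1.28, SE 0.27, adjusted p = 0.0335), and chondrocyte-like cells fell from 4.09 and 3.14 to 1.62 and 1.52 CPM (log2 fold change -1.08, SE 0.17, adjusted p = 0.0136). Without Fracture 1 or Fracture 2 the adjusted p was 0.274 to 0.290 and 0.142 to 0.149. With DESeq2 the cycling value was 0.0557.

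Angpt2 rose in ECs and in smooth muscle-like cells, though not in each of their subclasses. ECs as a class were at 16.0 and 15.6 CPM in Control 1 and Control 2 and 25.04 and 24.4 CPM in Fracture 1 and Fracture 2 (log2 fold change 0.76, SE 0.094, adjusted p = 0.0117). Metaphyseal capillary-like ECs, the EC subclass in which the rise passed, were at 10.5 and 12.1 CPM in Control 1 and Control 2 and 31.3 and 28.5 CPM in Fracture 1 and Fracture 2 (log2 fold change 1.49, SE 0.17, adjusted p = 0.00754). Smooth muscle-like cells were at 55.8 and 72.8 CPM in Control 1 and Control 2 and 112 and 112 CPM in Fracture 1 and Fracture 2 (log2 fold change 0.84, SE 0.17, adjusted p = 0.0175), and the Scn4b- and Pln-led subclass carried the larger rise (34.6 and 34.9 CPM in Control 1 and Control 2 and 118 and 89.8 CPM in Fracture 1 and Fracture 2; log2 fold change 1.58, SE 0.28, adjusted p = 0.0259), while the Steap4- and Vtn-led subclass had 108 and 105 CPM in Control and 145 and 139.6 CPM in Fracture, which did not pass (log2 fold change 0.50, SE 0.16, adjusted p = 0.0738). With either Fracture preparation left out, the adjusted p was 0.126 to 0.147 in ECs and 0.0762 to 0.0818 in metaphyseal capillary-like ECs, and without Fracture 1 it was 0.0640 in the Scn4b- and Pln-led subclass. The smooth muscle-like call was lost without Control 1, Fracture 1 or Fracture 2 (adjusted p = 0.106 to 0.112). Timp4- and Glycam1-led ECs, the tested EC subclass with the highest Angpt2 level in both groups, had 62.8 and 73.0 CPM in Control and 48.7 and 42.2 CPM in Fracture (log2 fold change -0.58, SE 0.19, adjusted p = 0.0966). Arterial-like ECs (2.84 and 2.87 against 5.56 and 13.3 CPM, log2 fold change 1.84, adjusted p = 0.0757) and sinusoidal-like ECs (12.9 and 13.8 against 7.80 and 12.0 CPM, log2 fold change -0.36, adjusted p = 0.504) did not pass either. Arterial-like ECs, low in Angpt2, were 493 and 316 of 1670 and 1253 Control ECs and 128 and 177 of 1210 and 1406 Fracture ECs. A small cluster led by Ccl21a and Prox1 held 0 Angpt2 UMIs in Control and 72 of the 612 in Fracture ECs. The EC class value therefore joins a difference in mix with those within subclasses. The Scn4b- and Pln-led cells, where Control levels were lower, were 437 and 104 of 690 and 208 smooth muscle-like cells in Control and 26 and 28 of 160 and 157 in Fracture, so the class value joins the difference within each subclass and that in their mix. Where Angpt2 rose the Fracture pair lay above both Control values. The class-by-group differences of the mixed stroma from ECs and from smooth muscle-like cells were -4.73 and -4.87 (SE 0.16 and 0.17). Metaphyseal BMSC-like and osteoblast-like cells showed no difference that passed (24.2 and 22.6 against 22.0 and 18.9 CPM, and 13.8 and 15.5 against 15.2 and 14.7 CPM).

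**Figure D2:**
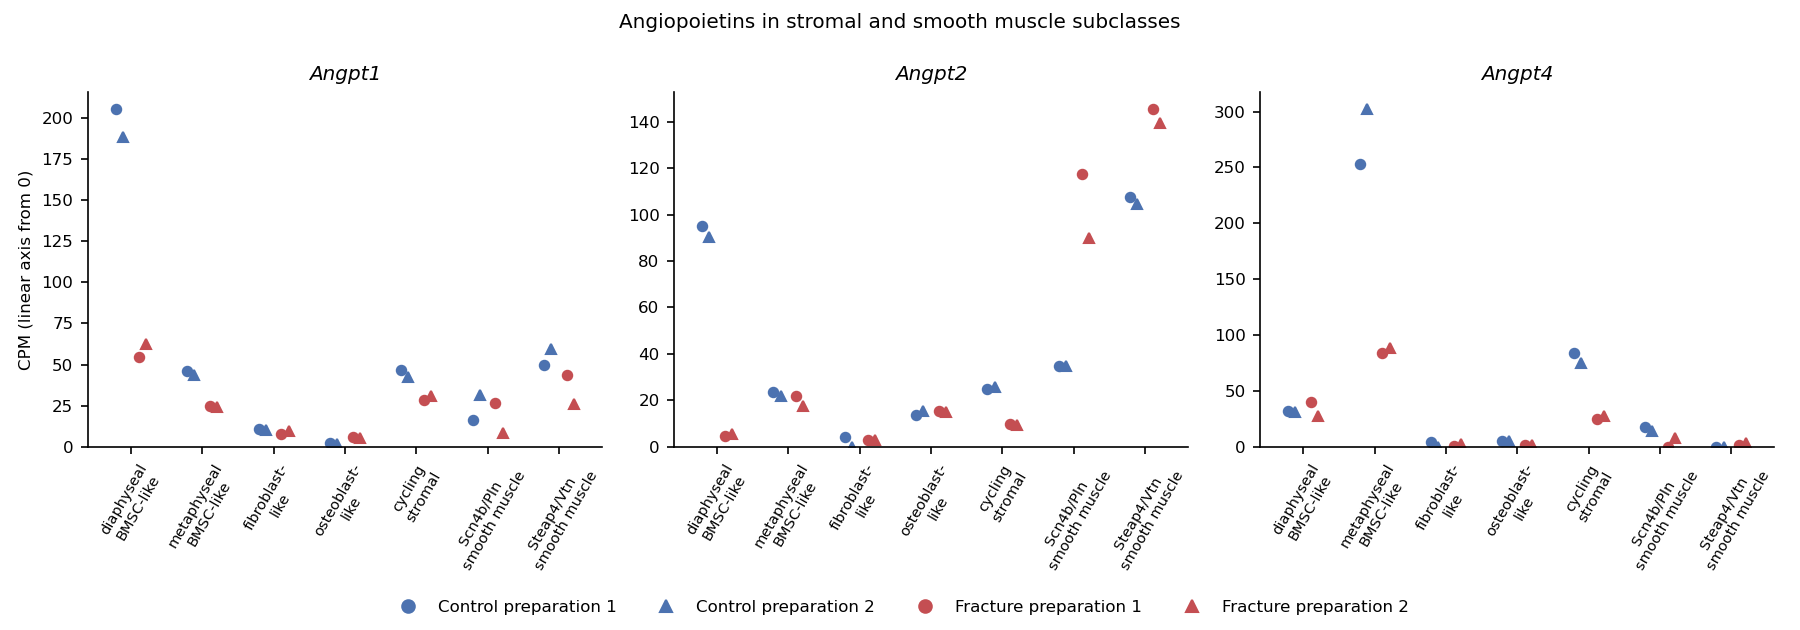
Angpt1, Angpt2 and Angpt4 levels in CPM, on linear axes from 0, in the stromal and smooth muscle subclasses, with 1 point per preparation. Angpt2 is far lower in Fracture in diaphyseal BMSC-like cells and higher in the Scn4b- and Pln-led smooth muscle cells, and Angpt4 stands highest in the metaphyseal BMSC-like subclass in both groups.

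Angpt4 was highest in the metaphyseal BMSC-like cells and fell there. These cells were at 257 and 305 CPM in Control 1 and Control 2 and 79.3 and 82.8 CPM in Fracture 1 and Fracture 2 (log2 fold change -1.66, SE 0.12, adjusted p = 0.00310), 3.17-fold lower in Fracture. The fall kept its adjusted p below 0.05 with any 1 preparation left out (-1.77 to -1.51). In the metaphyseal BMSC-like subclass drawn from the stroma alone it was at 253 and 302 CPM in Control 1 and Control 2 and 84.0 and 88.5 CPM in Fracture 1 and Fracture 2 (log2 fold change -1.54, SE 0.12, adjusted p = 0.00251). Cells with 1 or more Angpt4 UMIs, after each cell was thinned to 1000 UMIs, were 21.9 and 24.6% of the metaphyseal BMSC-like class in Control and 7.21 and 9.02% in Fracture, against 0.142 and 0% and 0.312 and 0.253% of blood cells. Osteoblast-like cells fell from 6.57 and 8.63 to 2.02 and 1.93 CPM (log2 fold change -2.01, SE 0.21, adjusted p = 0.0103), cycling stromal cells from 83.9 and 74.7 to 25.1 and 27.6 CPM, and the mixed stroma from 27.6 and 31.3 to 18.2 and 15.2 CPM (log2 fold change -0.53, SE 0.13, adjusted p = 0.0289). Without Fracture 1 or Fracture 2 the adjusted p was 0.140 to 0.144 in osteoblast-like cells, 0.107 to 0.142 in cycling stromal cells and 0.0994 to 0.180 in the mixed stroma, and without Fracture 1 it was 0.0559 in the stromal metaphyseal subclass. Diaphyseal BMSC-like cells overlapped between the groups (31.8 and 31.4 against 39.7 and 27.3 CPM). The fibroblast-like subclass was low in both groups (4.44 and 0 against 0.971 and 2.04 CPM), so neither of the larger subclasses of the mixed stroma showed a fall that passed. The make-up of that class differed between the groups, since the diaphyseal BMSC-like subclass held 1702 and 1231 stromal cells in Control and 375 and 417 in Fracture and the fibroblast-like subclass 376 and 125 against 674 and 781, and a change of mix and a change within cells cannot be told apart in the class value. In smooth muscle-like cells the fall rested on few molecules (59 and 12 against 2 and 5 UMIs, log2 fold change -2.53, SE 0.57, adjusted p = 0.0232) and was lost without any 1 preparation (log2 fold change -3.28 to -1.89, adjusted p = 0.0561 to 0.189). Smooth muscle-like cells also differed in mix, with 437 and 104 of 690 and 208 Control cells but 26 and 28 of 160 and 157 Fracture cells in the Scn4b- and Pln-led subclass. Angpt4 had 33 and 8 UMIs in Control and 0 and 2 in Fracture in that subclass, and 0 and 0 against 1 and 2 in the Steap4- and Vtn-led one, while the remaining smaller subclusters held 26 and 4 against 1 and 1. With the preparation number as a block, the Angpt4 calls in the mixed stroma and in smooth muscle-like cells were lost. ECs were at 1.73 and 0.983 CPM in Control and 1.80 and 1.90 CPM in Fracture.

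Apln rose in ECs and in chondrocyte-like cells. In ECs it was at 37.1 and 36.1 CPM in Control 1 and Control 2 and 149 and 144 CPM in Fracture 1 and Fracture 2 (log2 fold change 2.12, SE 0.064, adjusted p = 0.00617), 4.35-fold higher in Fracture with a 95% interval of 3.86 to 4.90. Both Fracture values lie far above both Control values, with little spread within a pair. The 6 chondrocyte markers in ECs also differed (2036 and 677 against 12902 and 13199 CPM), as did the share of arterial-like ECs, which held almost no Apln in Control (493 and 316 of 1670 and 1253 ECs, against 128 and 177 of 1210 and 1406). Without the mixed and low-UMI subclusters the Apln rise was 2.25 (adjusted p = 0.00475). In chondrocyte-like cells it was at 0.958 and 0.402 CPM in Control 1 and Control 2 and 15.04 and 15.2 CPM in Fracture 1 and Fracture 2 (log2 fold change 4.47, SE 0.31, adjusted p = 0.00254), or 22.2-fold (12.6 to 39.2). The rise was larger in chondrocyte-like cells than in ECs by 2.33 on the log2 scale (SE 0.35, adjusted p = 5.74e-05). The cluster led by Col10a1 and Ihh, genes of hypertrophic and prehypertrophic cartilage, went from 0.879 and 0.298 to 16.8 and 17.0 CPM (few of its Control cells clustered so without integration), and the cluster led by Serpina1 genes went from 1.04 and 0.523 to 6.41 and 6.46 CPM. The 6 endothelial markers summed to 28.6 and 21.9 CPM in Control and 42.2 and 41.0 CPM in Fracture within the chondrocyte-like class.

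With 1 preparation left out, the log2 fold change of Apln stayed at 2.11 to 2.14 in ECs and 4.14 to 5.37 in chondrocyte-like cells. Neither call was kept without Fracture 1 or Fracture 2, where calls over all genes were lost in ECs and mostly lost in chondrocyte-like cells. That loss is therefore not particular to Apln. In the diaphyseal BMSC-like subclass Apln was at 1.93 and 0.720 CPM in Control 1 and Control 2 and 22.1 and 14.7 CPM in Fracture 1 and Fracture 2 (log2 fold change 4.03, SE 0.45, adjusted p = 0.00213). The log2 fold change ran from 3.48 to 4.87 over the 4 fits with 1 preparation left out. In this subclass and in the mixed stroma, Apln reached the filter on low counts in 1 Control and 2 Fracture preparations. The tests and fits there are therefore no independent support for a rise. In the same cells the BMSC markers summed to 42955 and 38103 CPM in Control and 4939 and 5693 CPM in Fracture and the chondrocyte markers to 501 and 224 and 3846 and 4050.2 CPM, and their part in the result was not tested. The mixed stroma as a whole was at 1.55 and 0.602 CPM in Control 1 and Control 2 and 14.5 and 9.12 CPM in Fracture 1 and Fracture 2 (log2 fold change 3.69, SE 0.48, adjusted p = 0.00609). Without Fracture 1 its adjusted p was 0.0585, and the log2 fold change ran from 3.17 to 4.57 over the 4 fits. Cycling stromal cells had 2 Apln UMIs in Control and 98 in Fracture (ratio per UMI sequenced 13.7, 95% counting interval 3.70 to 115). In those cells too Apln passed the filter through the Fracture preparations, and the interval covers counting error only, so the ratio is a description. Metaphyseal BMSC-like cells did not pass (1.68 and 1.74 against 2.33 and 2.65 CPM). After thinning to 1000 UMIs, 0.0956 and 0% of Control and 1.33 and 1.20% of Fracture chondrocyte-like cells had an Apln UMI, against 0.114 and 0% and 0.312 and 0.505% of blood cells, which include a subcluster led by collagen genes, so that free RNA and mixed cells cannot be told apart in that share. Without thinning the shares were 1.09 and 0.732% and 11.5 and 12.1% in chondrocyte-like cells and 0.388 and 0.0343% and 2.18 and 1.26% in blood cells. The median depth was 15002 and 12715 UMIs per chondrocyte-like cell in Control and Fracture, and 9084.5 and 8404.5 per granulocyte-like cell.

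The TIE receptor genes were endothelial and lower in Fracture ECs, though the Tie1 call was lost under several alternatives. Of all Tek UMIs, ECs held 95.4% in Control and 94.1% in Fracture, and of all Tie1 UMIs 90.5% and 93.1%. Tek was at 316 and 309.9 CPM in Control 1 and Control 2 and 178 and 179 CPM in Fracture 1 and Fracture 2 (log2 fold change -0.69, SE 0.058, adjusted p = 0.00818), 1.61-fold lower in Fracture (95% interval 1.45 to 1.80). Tie1 was at 353 and 365 CPM in Control 1 and Control 2 and 264 and 272 CPM in Fracture 1 and Fracture 2 (log2 fold change -0.30, SE 0.067, adjusted p = 0.0339). For each receptor gene the Fracture pair lay below both Control values and the spread within pairs was small. The endothelial-like class of Fracture held more cells of subclusters that also carried genes of other classes (21.3% and 18.3% of ECs, against 6.11% and 2.23% in Control), and the 6 chondrocyte markers summed to 2036 and 677 CPM in Control ECs and 12902 and 13199 CPM in Fracture ECs, while the 6 endothelial markers summed to 8032 and 7759.8 and 6439 and 6364 CPM. Without the mixed and the low-UMI subclusters, a choice made after seeing the data, Tek still fell by 0.53 on the log2 scale (adjusted p = 0.00941), whereas Tie1 was at -0.12 (adjusted p = 0.169). The Tie1 call was also lost with the preparation number as a block (adjusted p = 0.0530), at a finer clustering (0.0930) and without integration of the libraries (0.0958). With either Fracture preparation left out, the adjusted p was 0.115 to 0.133 for Tek and 0.180 to 0.248 for Tie1.

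Aplnr went the other way from Tek in the same cells. ECs held 96.9% of its UMIs in Control and 95.8% in Fracture. The level was 437 and 439 CPM in Control 1 and Control 2 and 664 and 651 CPM in Fracture 1 and Fracture 2 (log2 fold change 0.71, SE 0.064, adjusted p = 0.00837), 1.63-fold higher in Fracture with an interval of 1.45 to 1.84. Arterial-like ECs, low in Aplnr, were 493 and 316 of 1670 and 1253 Control ECs and 128 and 177 of 1210 and 1406 Fracture ECs, so the class value joins a difference in mix with those within subclasses. Without the mixed and low-UMI subclusters the rise was 0.87 (adjusted p = 0.00628), and without Fracture 1 or Fracture 2 the adjusted p was 0.115 to 0.131. The share of ECs with an Aplnr UMI, at 1000 UMIs per cell, was 26.2 and 25.7% in Control and 45.9 and 43.8% in Fracture, and 0.228 and 0.138% and 1.25 and 1.26% in blood cells. The corresponding EC shares were 27.2 and 27.4% and 18.2 and 17.1% for Tek, 29.4 and 31.7% and 25.1 and 24.9% for Tie1 and 2.14 and 2.18% and 10.5 and 10.9% for Apln. The exact permutation p was 0.333 for each of these 4 genes, the smallest it can give, so this test cannot set the differences apart from chance. The Tie1 share turned its direction without thinning and was 10.7 points higher in Fracture. Without thinning, 65.8 and 69.4% and 68.2 and 70.4% of ECs had a Tek UMI, at a median of 4564 UMIs per Control EC and 7862.5 per Fracture EC.

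Aplnr was also called at low level outside the endothelium. In the mixed stroma it was at 0.948 and 0.502 CPM in Control 1 and Control 2 and 3.78 and 3.06 CPM in Fracture 1 and Fracture 2 (log2 fold change 2.48, SE 0.38, adjusted p = 0.00836), in osteoblast-like cells at 0.511 and 0.294 CPM in Control 1 and Control 2 and 1.69 and 1.20 CPM in Fracture 1 and Fracture 2 (log2 fold change 1.70, SE 0.38, adjusted p = 0.0460) and in chondrocyte-like cells at 1.06 and 1.05 CPM in Control 1 and Control 2 and 2.38 and 1.98 CPM in Fracture 1 and Fracture 2 (log2 fold change 1.20, SE 0.20, adjusted p = 0.0150). At 1000 UMIs per cell the share with an Aplnr UMI was 0.255 and 0.221%, 0.182 and 0.113% and 0.161 and 0.154% in the Fracture preparations of these classes, below the 1.25 and 1.26% of blood cells. In the diaphyseal BMSC-like subclass the gene had 7 and 6 UMIs in Control and 27 and 28 in Fracture, or 0.846 and 0.720 CPM in Control and 6.79 and 6.32 CPM in Fracture (log2 fold change 3.29, SE 0.31, adjusted p = 0.00135), with 0.267 and 0.480% of Fracture cells. Without Fracture 1 or Fracture 2 the adjusted p was 0.0657 to 0.0824, 0.211 to 0.291 and 0.112 to 0.148 in the mixed stroma, osteoblast-like and chondrocyte-like cells. The osteoblast-like value did not pass with DESeq2 (adjusted p = 0.0767) or with the preparation number as a block. In the mixed stroma, osteoblast-like cells and the diaphyseal BMSC-like subclass, Aplnr passed the filter on low counts through the Fracture preparations. These levels were not set apart from background, because the comparison cells were themselves mixed. Granulocyte-like cells went from 2.54 and 1.39 to 30.1 and 31.6 CPM. The basophil-like subclass, however, held 0 and 0 Aplnr UMIs in its 29 and 28 Fracture cells, the erythroid-like subclass was at 2.63 and 0.861 CPM, and a blood subcluster led by Col1a2 and Col1a1 with 48 and 54 Fracture cells had 26.7% called doublets. Free RNA and mixed cells cannot be told apart here. Outside ECs, Tek and Tie1 were called in no class: Tek was at most 4.58 CPM in any other class outside the blood, and Tie1 was at 14.0 and 16.2 CPM in Control 1 and Control 2 and 14.1 and 16.8 CPM in Fracture 1 and Fracture 2 in smooth muscle-like cells (log2 fold change 0.070, SE 0.27, adjusted p = 0.868).

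**Figure D3:**
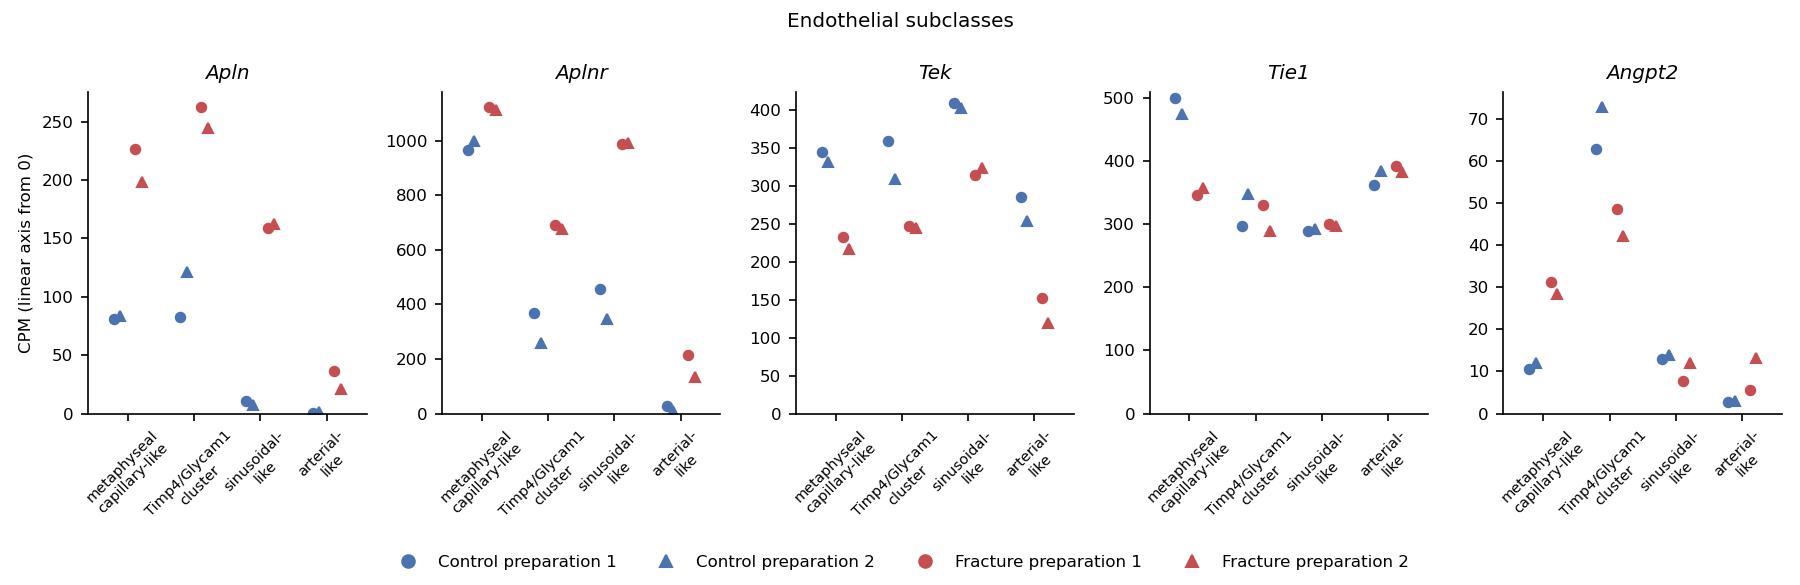
Levels in CPM, on linear axes from 0, of Apln, Aplnr, Tek, Tie1 and Angpt2 in the 4 tested endothelial subclasses, with 1 point per preparation. Apln is higher in Fracture in all 4, Aplnr is highest in metaphyseal capillary-like ECs in both groups, and Tie1 values of the groups lie apart in metaphyseal capillary-like ECs and close together elsewhere.

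The endothelial subclasses differed in which of these genes they held. Metaphyseal capillary-like ECs (1554 cells, with 5 of 6 markers of metaphyseal or sprouting capillaries) had in Control 965 and 999.8 CPM of Aplnr. Sinusoidal-like ECs (876 cells) had 456 and 346 CPM, the Timp4- and Glycam1-led ECs (715 cells) 368 and 257 CPM and arterial-like ECs (1114 cells) 29.2 and 10.1 CPM. The middle pair overlapped and the others stood apart. Apln in Control was highest in the Timp4- and Glycam1-led and metaphyseal capillary-like ECs (82.9 and 122 and 80.7 and 83.9 CPM, overlapping), low in sinusoidal-like ECs (10.8 and 7.59 CPM) and almost at 0 in arterial-like ECs (3 UMIs in all). Tek lay between 253 and 409 CPM in these 4 subclasses in Control.

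Apln was higher in Fracture in each of these subclasses, including those where Control cells held little of it. In sinusoidal-like ECs Apln went from 10.8 and 7.59 to 159 and 162 CPM (log2 fold change 4.19, SE 0.18, adjusted p = 0.000174), the EC call that held with any preparation left out. Arterial-like ECs had 3 Apln UMIs in Control and 83 in Fracture (ratio 42.1, 95% counting interval 13.9 to 208). Apln passed the filter on low counts there through the Fracture preparations, and the interval covers counting error only, so the ratio is a description. Metaphyseal capillary-like ECs rose from 80.7 and 83.9 to 227 and 199 CPM (log2 fold change 1.46, SE 0.10, adjusted p = 0.00341), and Timp4- and Glycam1-led ECs from 82.9 and 122 to 262 and 245 CPM (log2 fold change 1.33, SE 0.20, adjusted p = 0.0107). Cycling ECs, too few for the test, had 44.6 and 36.5 CPM in Control and 236 and 238 CPM in Fracture. In every subclass named here the Fracture pair lay above the Control pair. Aplnr followed with 456 and 346 to 990.2 and 993 CPM in sinusoidal-like ECs (log2 fold change 1.35, SE 0.13, adjusted p = 0.00186), 29.2 and 10.1 to 215 and 133 CPM in arterial-like ECs (log2 fold change 3.20, SE 0.46, adjusted p = 0.0134) and 965 and 999.8 to 1124 and 1114 CPM in metaphyseal capillary-like ECs, where the difference was close to the threshold (log2 fold change 0.28, SE 0.076, adjusted p = 0.0494). That last call was lost without TMM scaling (adjusted p = 0.129), without called doublets (0.0501), at a finer endothelial clustering (0.0537) and with the preparation number as a block. It also rose in Timp4- and Glycam1-led ECs, from 368 and 257 to 693 and 676 CPM (log2 fold change 1.10, SE 0.16, adjusted p = 0.0100). Without Fracture 1 or Fracture 2 the Aplnr calls had an adjusted p of 0.0601 to 0.0644, 0.102 to 0.129, 0.217 to 0.218 and 0.117 to 0.125 in these 4 subclasses in the order named, and Apln 0.127 to 0.145 in the last. Without Fracture 1 it was 0.0591 for Apln in metaphyseal capillary-like ECs. The arterial-like log2 fold change of Aplnr ran from 2.63 to 4.12 with 1 preparation left out.

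The fall of Tek was found in 2 of the 4 tested EC subclasses. Tek went from 285 and 253 to 153 and 119 CPM in arterial-like ECs (log2 fold change -0.91, SE 0.13, adjusted p = 0.0139) and from 344 and 331 to 233 and 217 CPM in metaphyseal capillary-like ECs (log2 fold change -0.50, SE 0.077, adjusted p = 0.0135). It was lower without passing in sinusoidal-like (log2 fold change -0.31, SE 0.092, adjusted p = 0.0659) and in Timp4- and Glycam1-led ECs (log2 fold change -0.47, SE 0.12, adjusted p = 0.0572). Tie1 fell only in metaphyseal capillary-like ECs among the tested subclasses (498 and 473 to 346 and 356 CPM, log2 fold change -0.38, SE 0.076, adjusted p = 0.0244), and was near 288 and 292 CPM in Control and 299 and 296 CPM in Fracture in sinusoidal-like ECs. With either Fracture preparation left out, the adjusted p was 0.0817 to 0.0998 and 0.101 to 0.124 for Tek in arterial-like and metaphyseal capillary-like ECs and 0.138 to 0.183 for Tie1. This Tie1 call in metaphyseal capillary-like ECs was also lost with the preparation number as a block. A difference between subclasses was not tested. Within these subclasses the 6 endothelial markers summed to 9929.8 and 9402 CPM in Control and 8908 and 8593 CPM in Fracture for metaphyseal capillary-like ECs and to 8197 and 7839 and 7842 and 7405 CPM for arterial-like ECs. Their chondrocyte markers summed to 360.4 and 98.2 against 1233 and 2045 CPM and 356 and 137 against 2289.8 and 2006 CPM, and their part in the result was not tested. A cluster led by Ccl21a and Prox1, genes of lymphatic endothelium, had 2 and 4 Control and 14 and 10 Fracture cells. It held 0 Angpt2 UMIs in Control and 72 in Fracture (436 and 273 CPM). The median was 2365 UMIs per Control cell and 6397.5 per Fracture cell, and so few Control cells set no limit on a fold change.

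**Figure D4:**
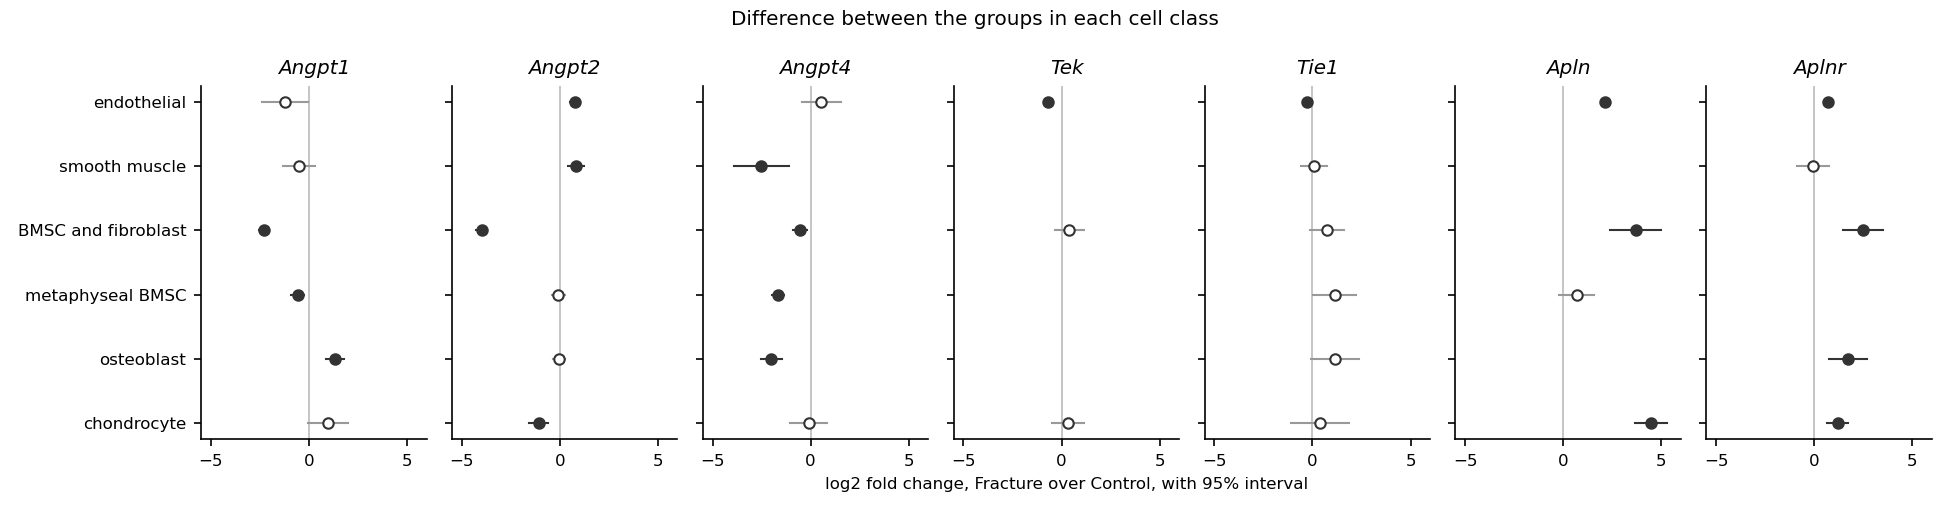
Log2 fold change of each member, Fracture over Control, with its 95% interval, in the 6 broad classes, with filled points where the adjusted p was below 0.05 and no point where a member was not tested. Called points of Apln and Aplnr lie above 0 and those of Angpt4, Tek and Tie1 below 0, and Angpt1 and Angpt2 have called points on either side.

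Read against the share of all tested genes that were called, the members' counts were as follows. In ECs 5 of 7 members were called, against 32.9% of all genes tested. In the mixed stroma 5 of 7 were called (53.5% of all genes), in chondrocyte-like cells 3 of 7 (37.1%), in osteoblast-like cells 3 of 5 tested (16.0%), in metaphyseal BMSC-like cells 2 of 5 (32.4%) and in smooth muscle-like cells 2 of 5 (29.5%). Members that were not tested had too few UMIs, and a gene that is high in only 1 group passes that filter more easily, so these counts are a description. Among subclasses, 5 of 5 members were called in metaphyseal capillary-like ECs (24.3% of all genes), 3 of 5 in arterial-like (14.5%), 2 of 5 in sinusoidal-like (16.6%) and 2 of 5 in Timp4- and Glycam1-led ECs (10.7%). In the stroma 4 of 5 were called in the diaphyseal BMSC-like (52.3%), 2 of 3 in the metaphyseal BMSC-like (29.2%), 2 of 5 in the osteoblast-like (14.9%), 3 of 4 in the cycling (13.8%) and 0 of 5 in the fibroblast-like subclass (13.6%). In smooth muscle 1 of 2 was called in the Scn4b- and Pln-led (9.91%) and 0 of 3 in the Steap4- and Vtn-led subclass (18.0%). The class-by-group difference passed in 40 of 63 pairs examined. Those pairs were taken because the member was called in either class, while the 25.1% of all terms that passed has no such choice, so the shares are not comparable.

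Direction differed by gene. Over the 6 broad classes Apln rose in 3 of 4 tested and Aplnr in 4 of 5, and neither fell. Outside ECs the Aplnr levels were low and not set apart from background. Apln in the mixed stroma, and Aplnr there and in osteoblast-like cells, passed the filter on low counts through Fracture, which favours a rise. Of all genes tested, 9.56% (osteoblast-like) to 26.2% (mixed stroma) rose and 6.47% to 27.3% fell in the same 2 classes, so these counts are a description. Angpt4 fell in 4 of 6 and rose in none, but 2 of these classes, the mixed stroma and the smooth muscle-like cells, differed between the groups in their mix of subclasses. In smooth muscle-like cells Angpt4 also passed the filter on low counts through Control. With the preparation number as a block, the Angpt4 calls in these 2 classes and the Aplnr call in osteoblast-like cells were lost. Tek and Tie1 passed, with a fall, in ECs and in no other class tested. For Tie1 the difference from the other classes passed in 1 of 5 pairs, and its EC call was lost without the mixed subclusters. Angpt1 rose in 1 and fell in 2 of 6, and Angpt2 rose in 2 and fell in 2 of 6.

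Over all cells outside the blood, 6 of 7 members were called, against 39.7% of all genes. Angpt4 was at 24.99 and 31.0 CPM in Control 1 and Control 2 and 5.31 and 5.01 CPM in Fracture 1 and Fracture 2 (log2 fold change -2.23, SE 0.12, adjusted p = 0.00338). Apln was at 4.39 and 5.55 CPM in Control 1 and Control 2 and 23.4 and 23.2 CPM in Fracture 1 and Fracture 2 (log2 fold change 2.44, SE 0.13, adjusted p = 0.00337), while Aplnr overlapped (44.97 and 64.2 CPM in Control 1 and Control 2 and 56.2 and 57.7 CPM in Fracture 1 and Fracture 2, adjusted p = 0.263). Angpt1, Angpt2, Tek and Tie1 fell by 1.55, 1.44, 1.10 and 0.71 on the log2 scale. Without Fracture 1 or Fracture 2 these 5 falls had adjusted p from 0.0502 to 0.0534 for Angpt4 to 0.162 to 0.218 for Tie1, and without Fracture 1 the Apln value was 0.0509. In cells with at least 3000 UMIs the Tie1 value did not pass (adjusted p = 0.0747). In such sums fewer cells of a type and less RNA per cell cannot be told apart, and the EC share was lower in Fracture. The source of the UMIs shifted with it. ECs held 86.7% of Apln UMIs in Control and 52.4% in Fracture, and chondrocyte-like cells 4.63% and 41.7%. The mixed stroma held 38.7% of Angpt2 UMIs in Control and 4.79% in Fracture, and ECs 6.78% and 27.6%.

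**Figure D5:**
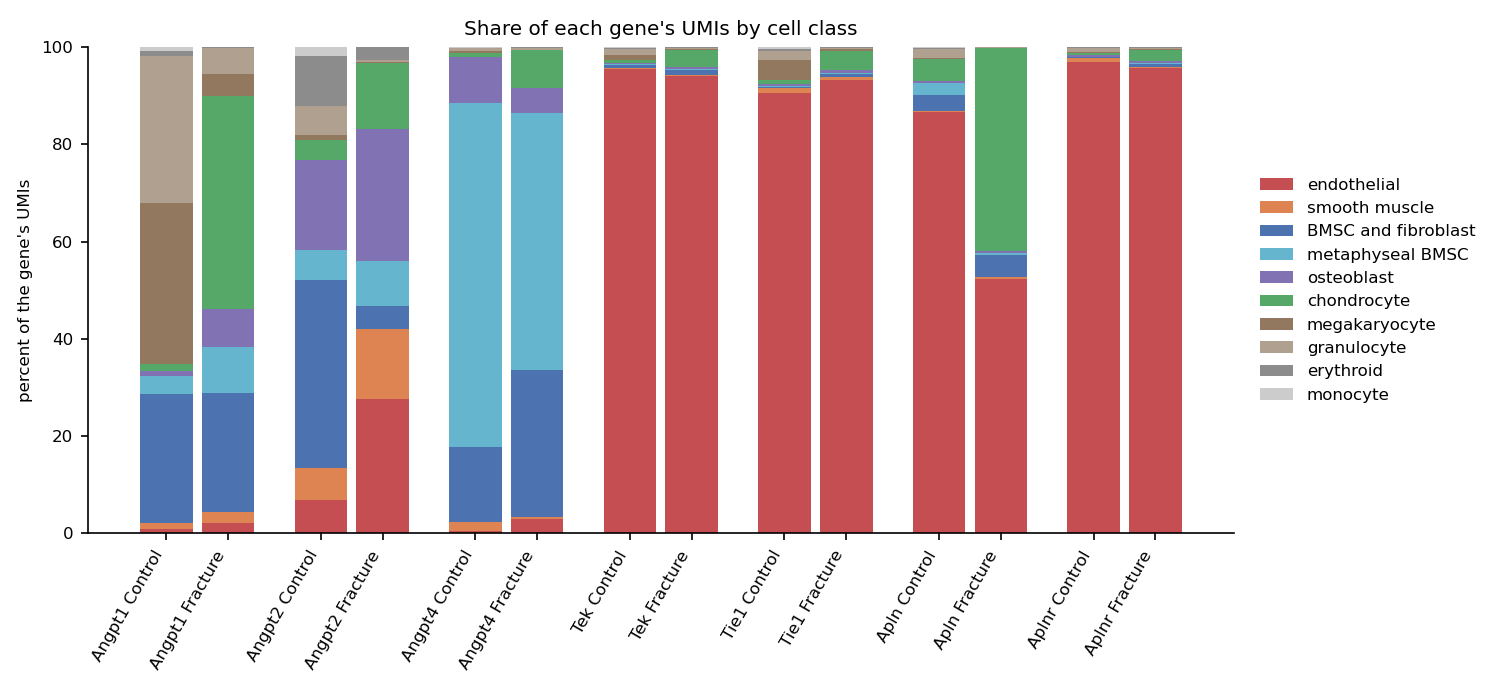
Percent of each member's UMIs that came from each cell class, as stacked bars for Control and Fracture with the 2 preparations of a group summed. The receptor genes stay with the endothelial-like cells in both groups, while the part of Apln from chondrocyte-like cells is 4.63% in Control and 41.7% in Fracture.

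In the blood classes, which were given no test, Angpt1 was the member at high level. Megakaryocyte-like cells had 398 and 247 CPM in Control 1 and Control 2 and 162 and 303 CPM in Fracture 1 and Fracture 2, from few Fracture molecules (54 and 81 UMIs), and the groups overlapped. Granulocyte-like cells had 146 and 136 CPM in Control 1 and Control 2 and 130.4 and 90.9 CPM in Fracture 1 and Fracture 2. Tie1 in megakaryocyte-like cells was at 23.9 and 27.1 CPM in Control and 50.9 and 22.5 CPM in Fracture. Blood cells were depleted before sequencing, so these cells are the remainder.

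Partners of these receptors and ligands were counted from pathway lists. In ECs, where 32.9% of all genes were called, 9 of 10 partners of the TIE receptors were tested, 1 rose, 3 fell and the median log2 fold change was -0.068, against 0.0078 over all genes. Ptprb, the receptor phosphatase that dephosphorylates TIE2, was at 1544 and 1519 TMM-scaled CPM in Control and 644 and 687 in Fracture (log2 fold change -1.20, SE 0.083, adjusted p = 0.00762). Dok2, an adaptor that binds TIE2, fell as well (log2 fold change -3.36, SE 0.37, adjusted p = 0.0102), as did the phosphatase gene Ptpn11 (log2 fold change -0.40, SE 0.068, adjusted p = 0.0197), while the adaptor Grb14 rose (log2 fold change 1.99, SE 0.17, adjusted p = 0.00821). Foxo1, the transcription factor restrained by TIE2 signalling, was at -0.068 (adjusted p = 0.606). Of 10 apelin pathway genes 8 were tested, none rose and 5 fell, with a median of -0.58. These were the arrestins Arrb1 (log2 fold change -0.70, SE 0.064, adjusted p = 0.00840) and Arrb2 (-0.68), Hdac5 (-0.49), the flow-responsive factor Klf2 (-1.14) and the peptidase Mme (-0.88). Of 10 sprouting genes all were tested, 2 rose and 4 fell, while the median was 0.29. The EC subclasses differed in this list, with 5 of 9 tested rising and 1 falling in Timp4- and Glycam1-led ECs (median 1.41, 10.7% of all genes called), 4 of 9 and 3 in arterial-like (14.5%), 2 of 10 and 3 in metaphyseal capillary-like (24.3%) and 1 of 6 and 2 in sinusoidal-like ECs (16.6%), and a difference between subclasses was not tested. With either Fracture preparation left out, edgeR called 0 genes in ECs (3668 and 3963 at an unadjusted p under 0.05), so none of the EC calls of these lists held there.

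Among those sprouting genes, Adm, the gene of adrenomedullin, rose (log2 fold change 1.74, SE 0.25, adjusted p = 0.0154) and so did the basement membrane gene Nid2 (1.00). The VEGF receptor genes Kdr (-0.66) and Flt1 (-0.69), the Notch ligand Dll4 (-0.69) and Notch4 (-0.71) fell. These EC calls also ended without Fracture 1 or Fracture 2. Esm1 and Kcne3 did not pass (adjusted p = 0.209 and 0.0646). Of 6 angiopoietin-like genes, which resemble angiopoietins but do not bind TIE2, 5 were tested in ECs and Angptl2 was the 1 called (log2 fold change 2.21, SE 0.54, adjusted p = 0.0419). In diaphyseal BMSC-like cells Angptl2 rose (log2 fold change 2.50, SE 0.16, adjusted p = 0.000579) while Angptl1 and Angptl4 fell (-2.22 and -0.93), so 1 of 5 tested rose and 2 fell, against 52.3% of all genes called. In chondrocyte-like cells Angptl4 rose (log2 fold change 1.88, SE 0.15, adjusted p = 0.00342) and Angptl2 fell (-0.66), and 2 of 6 rose and 2 fell, against 37.1% of all genes called.

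Of the apelin pathway, 4 of 10 tested genes rose and 5 fell in chondrocyte-like cells, against 37.1% of all genes called. The list's median was -0.31. With either Fracture preparation left out far fewer genes were called in these cells, and the list's genes were not followed in those fits. Apela, the gene of another APLNR ligand (listed as Gm10664), fell there on few molecules, 17 and 6 UMIs in Control against 8 and 7 in Fracture (log2 fold change -2.58, SE 0.33, adjusted p = 0.00843). At these counts Apela passed the filter on low counts through the Control preparations, which favours a fall. The protease gene Furin (log2 fold change -0.77, SE 0.11, adjusted p = 0.0112) and the arrestins Arrb1 (-1.80) and Arrb2 (-0.83) fell there as well. The 4 that rose were the G protein gene Gna13 (0.36), Hdac5 (0.68) and the transcription factors Mef2c (0.50) and Klf2 (0.77). The adrenomedullin gene Adm, of the sprouting list, also rose in these cells (log2 fold change 4.42, SE 0.36, adjusted p = 0.00352). All 10 genes of that list were tested there, and Adm was the 1 that rose while 1 fell. The list's median was 0.068, and 37.1% of all genes were called. In diaphyseal BMSC-like cells, where 52.3% of all genes were called, 3 of 8 apelin pathway genes rose and 3 fell, among them Mef2c (1.61) and Mme (-2.20), and of 8 TIE partners 1 rose and 2 fell.

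The genes whose level pattern was most like that of each member were found over 36 sums of 9 classes and 4 preparations, by Pearson's correlation of log2(CPM + 1) among 14937 genes. These points share preparations, so the values are a description. For Tek they were Cd38 (0.983), Robo4 (0.9803) and Podxl (0.977), for Tie1 Scarf1 (0.972), Flt1 (0.963) and Kdr (0.957), and for Aplnr Emcn (0.978), Cdh5 (0.9749) and Pcdh17 (0.968). Apln was most like Myzap (0.880), Mecom (0.866) and Vwa1 (0.860). Angpt4 was most like Tenm4 (0.914), Esr1 (0.903) and Tnc (0.894), Angpt1 most like Meis1 (0.869), and Angpt2 most like Sept4 (0.851). Among the members Tek and Tie1 were the most alike pair (0.944), followed by Tek and Aplnr (0.921), and Angpt1 with Angpt2 gave 0.055.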

How the data were processed

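Droplet single-cell RNA sequencing (10x 3′ kit, version 3) was made of bone stromal cells depleted of blood cells. The values are UMI counts per gene and cell, deposited by the authors as 8 tables, 1 for each library, and used as deposited. The submitters' processing notes name bcl2fastq 2.19.1.403, UMI-tools 1.0.0, STAR 2.7.3a, featureCounts 1.6.4 and mm10, while the published methods name STARsolo and a later annotation, and which of these made the tables was not settled. The mm10 names are those of GRCm38, in which positions and promoters were read.

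Genes seen in at least 3 cells were kept (26357 of 28956), and cells with 500 to 6000 genes and at most 25% mitochondrial UMIs (85.6% of Control and 99.6% of Fracture barcodes). Library totals were 56543151 to 89126291 UMIs. Cells were integrated over libraries and clustered in Seurat 5.3.0, leaving out the members and the pathway lists, and named from marker lists. Scrublet (scanpy 1.11.5, 6% expected) marked 718 cells as doublets (1.58%), which were kept and left out in an alternative. For each class and preparation the counts of its cells were added up, for classes with at least 20 cells in every preparation, and fitted with edgeR 4.0.16 (R 4.3.3, TMM scaling, filterByExpr, quasi-likelihood, Benjamini-Hochberg over all genes tested). The design has no block; a fit over all classes with preparation as a block gave class-by-group differences. Shares of cells were compared after thinning to 1000 UMIs (304 of 20676 Control and 0 of 24652 Fracture cells were shallower) with a two-sided exact permutation test, and intervals of low counts cover counting error only. The testing steps were run on simulated data with changes in far fewer genes than were called here, so that check does not cover a response this broad. All 7 members were named in every class, ligands before receptors. The named pathway genes were those past the threshold and up to 4 others of a list, and for the likeness of patterns the 3 closest genes. The members and all lists were chosen with earlier results of these data known. Apela was found under its older symbol. A gene of the apelin pathway list is counted in its totals and is not reported here by name. Alternatives were DESeq2 1.42.0, no TMM scaling, no filter on low counts, a block, leaving out each preparation, removing doublets, stricter cell filters, other clusterings and other thinning.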

Additional observations from a re-analysis of the deposited data

Results flagged for a closer look

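For 40 of the 63 class-by-group differences examined, the response of a member to fracture differed between a pair of broad classes in a test of the difference itself (edgeR, preparation as a block, adjusted p below 0.05). Each value is the log2 fold change, Fracture over Control, of the class named first minus that of the class named second. Over all genes 25.1% of such terms passed, without the choice of pairs in which the gene was called, so the shares are not comparable. Mixed stroma stands for the BMSC- and fibroblast-like class and metaphyseal for the metaphyseal BMSC-like class.

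Angpt1 passed in 8 of 12 pairs. Its fold change in the mixed stroma was lower than in smooth muscle-like cells by -1.92 and than in metaphyseal cells by -1.75. In chondrocyte-like cells it was higher than in metaphyseal cells by 1.46 and than in the mixed stroma by 3.21. In osteoblast-like cells it was higher than in smooth muscle-like cells by 1.73, than in metaphyseal cells by 1.90, than in ECs by 2.60 and than in the mixed stroma by 3.65.

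Angpt2 passed in 13 of 14 pairs. The mixed stroma differed from smooth muscle-like cells by -4.87, from ECs by -4.73 and from metaphyseal cells by -3.90, while chondrocyte-like and osteoblast-like cells differed from the mixed stroma by 2.85 and 3.97. Chondrocyte-like cells differed from smooth muscle-like cells by -2.02, from ECs by -1.88, from osteoblast-like cells by -1.11 and from metaphyseal cells by -1.05. Metaphyseal cells differed from smooth muscle-like cells by -0.97 and from ECs by -0.83. Osteoblast-like cells differed from smooth muscle-like cells by -0.90 and from ECs by -0.77.

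Angpt4 passed in 9 of 14 pairs. The osteoblast-like fold change minus that of ECs was -2.51 and minus that of the mixed stroma -1.44. The metaphyseal value minus that of ECs was -2.19, and the mixed stroma minus metaphyseal 1.12. Chondrocyte-like cells exceeded metaphyseal cells by 1.47, osteoblast-like cells by 1.79 and smooth muscle-like cells by 2.48. The mixed stroma exceeded smooth muscle-like cells by 2.12 and ECs exceeded them by 3.19, with 78 Angpt4 UMIs in smooth muscle-like cells in all. In the test of that class Angpt4 passed the filter on low counts through the Control preparations, so the differences from smooth muscle-like cells are a description.

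Apln passed in 4 of 6 pairs, with larger rises in the mixed stroma than in ECs (1.56) or metaphyseal cells (2.96), and in chondrocyte-like cells than in ECs (2.33) or metaphyseal cells (3.73). In the test of the mixed stroma Apln passed the filter on low counts through the Fracture preparations, so the differences with that class are a description. Aplnr passed in 3 of 10, for the mixed stroma minus ECs (1.77), osteoblast-like minus smooth muscle-like cells (1.78) and the mixed stroma minus smooth muscle-like cells (2.55), where the levels outside ECs are low and Aplnr passed the filter on low counts in the mixed stroma and osteoblast-like cells through the Fracture preparations. Tek passed in 2 of 2, with chondrocyte-like minus ECs at 1.00 and the mixed stroma minus ECs at 1.09. Tie1 passed in 1 of 5, osteoblast-like minus ECs, at 1.44. The classes set against ECs held few UMIs of these 2 genes. Tek had 33 in Control and 161 in Fracture in chondrocyte-like cells, and 30 and 42 in the mixed stroma. Tie1 had 26 and 45 in osteoblast-like cells. Such levels were not set apart from background, so these Tek and Tie1 differences are a description. Without the preparation block 6 of the 40 class-by-group differences did not pass: Tek in chondrocyte-like cells and in the mixed stroma minus ECs (adjusted p = 0.0918 and 0.0925), Tie1 in osteoblast-like cells minus ECs (0.126), Aplnr in osteoblast-like minus smooth muscle-like cells (0.0792), Apln in the mixed stroma minus ECs (0.0685) and Angpt4 in the mixed stroma minus metaphyseal cells (0.0622).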

How the results depend on the processing

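Over 90 member results, 50 of them called, DESeq2 took 3 calls below the threshold, a replicate block 7 (adjusted p for Aplnr in osteoblast-like cells 0.0611, Angpt4 in the mixed stroma 0.0661 and in smooth muscle-like cells 0.0585, Tie1 in ECs 0.0530, Tie1 and Aplnr in metaphyseal capillary-like ECs 0.0585 and 0.0822, Angpt2 in cycling stroma 0.0634), cells with at least 3000 UMIs 2, no TMM scaling 1, removal of doublets 1, no integration 1 of 18, resolution 0.2 1 of 20, a finer endothelial clustering 1 of 12 (Aplnr in metaphyseal capillary-like ECs) and removal of mixed subclusters (chosen after seeing the data) 1 of 6, while a mitochondrial limit of 10% and no filter took 0, and none of these reversed a called result. With the replicate block 16 members (20 without it) were called over the broad classes, 21 (24) over the subclasses and 6 (6) over all cells. The same-numbered preparations correlated at 0.0035 to 0.082 in their deviations from the group means. These deviations include counting noise, so small values do not exclude that the numbers pair the preparations. Under the block, genes called were 1256 in osteoblast-like cells, 1431 in metaphyseal capillary-like, 909 in arterial-like and 588 in Timp4- and Glycam1-led ECs, and 675 in fibroblast-like, 1146 in osteoblast-like stromal cells. Without the count filter they were 2820 in arterial-like, 2645 in sinusoidal-like and 1992 in Timp4- and Glycam1-led ECs, 1395 and 648 in the Scn4b- and Steap4-led smooth muscle, and 3405 and 3162 in fibroblast-like and cycling stroma. DESeq2 called 1789 in metaphyseal capillary-like ECs and 783 in Steap4-led smooth muscle. Without TMM scaling the median log2 fold change of all genes over the broad classes ran from -0.31 in the mixed stroma to 0.063 in osteoblast-like cells, and higher against lower calls went from 3868 and 4031 to 2557 and 5918 in the mixed stroma, from 3294 and 3130 to 2200 and 4540 in chondrocyte-like cells, from 2498 and 2230 to 1904 and 3144 in ECs, from 2121 and 1947 to 1505 and 2804 in metaphyseal BMSC-like cells, from 1317 and 891 to 1368 and 594 in osteoblast-like cells and from 3687 and 4187 to 2303 and 6364 over all cells. Signs of uncalled values turned for Angpt4 in chondrocyte-like cells (block 0.0036, without doublets 0.046), Angpt2 in osteoblast-like cells without TMM (0.034 and, in the stromal subclass, 0.063), Angpt2 in sinusoidal-like ECs at the finer clustering (0.24) and Tie1 in Timp4- and Glycam1-led ECs above 3000 UMIs (0.0049). Without thinning, the differences in the EC share with a UMI were 1.68 points for Tek and 10.7 for Tie1. The share of metaphyseal capillary-like ECs rose by 2.60 points above 3000 UMIs, against 6.86. Leaving out 1 preparation, with the lone one assumed to vary like the other group, gave ranges of genes called of 216 to 8917 in chondrocyte-like, 0 to 5444 in osteoblast-like, 1645 to 9755 in mixed, 721 to 5585 in metaphyseal BMSC-like, 0 to 7399 in endothelial-like and 0 to 1421 in smooth muscle-like cells, of 0 to 4388, 0 to 2775, 115 to 2670 and 69 to 2247 in metaphyseal capillary-like, arterial-like, sinusoidal-like and Timp4- and Glycam1-led ECs, of 250 to 732 and 0 to 746 in the Scn4b- and Steap4-led smooth muscle, of 4013 to 7443, 186 to 4599, 0 to 4624, 0 to 5334 and 180 to 2399 in diaphyseal, metaphyseal, fibroblast-like, osteoblast-like and cycling stroma, and of 0 to 12026 over all cells. Where edgeR called 0 genes, 1499 to 5405 had an unadjusted p under 0.05. Members called ranged from 3 to 23, 5 to 32 and 0 to 7, and class-by-group calls from 23 to 40. Uncalled values that crossed 0 in these fits were Angpt4 and Tie1 in chondrocyte-like cells (-0.35 to 0.52 and -0.12 to 2.32), Angpt2 in osteoblast-like (-0.16 to 0.083; subclass -0.13 to 0.11), metaphyseal (-0.15 to 0.041; subclass -0.21 to 0.095) and fibroblast-like cells (-0.44 to 7.06), Angpt4 in fibroblast-like cells (-1.43 to 6.18), Tie1 and Aplnr in smooth muscle-like cells (-0.075 to 0.20 and -0.28 to 0.39), Angpt1 in Scn4b-led cells (-1.41 to 0.27), Tie1 in Timp4- and Glycam1-led ECs (-0.22 to 0.062), 4 class differences (Angpt1 chondrocyte minus osteoblast -0.63 to 0.31, Angpt1 metaphyseal minus smooth muscle -0.65 to 0.42, Angpt4 osteoblast minus smooth muscle -0.31 to 1.46, Angpt2 endothelial minus smooth muscle -0.28 to 0.058) and the share of Timp4- and Glycam1-led ECs (-2.40 to 5.89 points). The cause was not tested. The metaphyseal class could not be drawn without integration.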

Other observations

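In the blood remainder, granulocyte-like cells held 9 and 4 Apln UMIs in Control and 4 and 6 in Fracture, which is 0.509 and 0.429 against 5.73 and 7.57 CPM, since Fracture held only 78 and 80 of these cells. The ratio of Apln to Aplnr UMIs, which is read only across groups, was in ECs 0.0849 and 0.0824 in Control and 0.224 and 0.221 in Fracture, and in chondrocyte-like cells 0.906 and 0.385 against 6.32 and 7.67. The Steap4- and Vtn-led smooth muscle cells held 24 and 16 Tie1 UMIs in Control and 7 and 18 in Fracture, with 8 Tek UMIs in all 4 preparations.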
